A study of Mus musculus with 6 samples.

Results

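The cadherin genes described here are Cdh1, Cdh2, Cdh3, Cdh5, Cdh6, Cdh11, Cdh13, Cdh16, Cdh17 and Cdh19, which were found by symbol in the deposited gene table and make up 10 of its 41214 genes. They were read in cultured mouse cells grown out of mammary tumors, which trace back to the mammary epithelial line NMuMG and express Neu-NT, the oncogenic version of ErbB2, a growth factor receptor. The shCdGAP group (3 libraries) carried a short hairpin RNA against CdGAP, the product of Arhgap31, which switches off the small GTPases Cdc42 and Rac1. The shCON group (3 libraries) carried a control hairpin, and all cells of both groups expressed Neu-NT and were grown with serum, insulin and G418. The study asked how CdGAP, together with the repressor Zeb2, acts on the E-cadherin gene Cdh1. The cell type label reads shCTL for all 6 libraries, so groups follow the genotype label. The labels do not say how many hairpins, clones or cultures stand behind a group, and p-values therefore reflect how much these libraries vary, possibly for technical reasons only.

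Cadherins are calcium-dependent adhesion proteins of the cell surface. Classical cadherins of type I (Cdh1, Cdh2, Cdh3) and type II (Cdh5, Cdh6, Cdh11, Cdh19) reach into the cell with a tail that binds catenins and through them the actin cytoskeleton. Atypical members lack such a tail: Cdh13 is held by a lipid anchor, and Cdh16 and Cdh17 have an enlarged outer part and a short tail. E-cadherin holds mammary luminal cells together, and its transcription is repressed by Zeb and Snail family factors that bind E-boxes, short DNA motifs of the form CANNTG.

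Gene-assigned reads per library ranged from 19176540 to 26824249. Arhgap31 was at 0.149, 0.826 and 0.748 FPKM in shCdGAP libraries 1, 2 and 3, against 1.19, 1.30 and 1.35 FPKM in shCON (FPKM is a level scaled by depth and by gene length). All 3 shCdGAP values lay below those of shCON, but the log2 fold change of -0.56 was not past the threshold (limma, adjusted p = 0.0836). shCdGAP library 1 stood apart: across tested genes its log2 levels correlated at 0.948 and 0.938 with those of libraries 2 and 3, which correlated at 0.996 with each other, and the proliferation gene Mki67 was at 4.36 FPKM in it, against 72.0 and 67.7 FPKM in shCdGAP libraries 2 and 3 and 27.3 to 40.3 FPKM in shCON. Of 7 mammary luminal markers, the keratins Krt8 and Krt18 were at 1546 to 3022 FPKM in shCdGAP and 1491 to 2369 FPKM in shCON. Krt19 averaged 479 FPKM in shCdGAP and 358 FPKM in shCON. The others were low. Krt7 averaged 0.792 FPKM in shCdGAP and 0.264 FPKM in shCON (adjusted p = 0.0353, limma, lost without any 1 library other than shCdGAP library 1). Gata3 averaged 0.516 FPKM in shCdGAP and 0.601 FPKM in shCON, and Esr1 0.00308 and 0.0811 FPKM. Elf5 had 3 reads in all libraries together. Summed levels of 8 myoepithelial markers were 0.719 to 2.34 FPKM in shCdGAP and 0.587 to 0.756 FPKM in shCON, with different genes behind them: Krt5 averaged 0.0131 FPKM in shCdGAP and 0.607 FPKM in shCON (adjusted p = 0.00188, limma), and Cnn1 averaged 1.34 FPKM in shCdGAP and 0.0270 FPKM in shCON (adjusted p = 0.0227, limma, lost without any 1 shCON library).

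For 1 member, Cdh6, the RefSeq promoter table holds an entry (build GRCm38.p6), and the 250 bases before its start site (chr15:13173676-13173925, minus strand) are shown because Cdh6 was among the members higher in shCdGAP and its upstream letters can be set against the E-box motif named above. Capitals mark CANNTG, searched on both strands (the motif reads the same on each).
Cdh6: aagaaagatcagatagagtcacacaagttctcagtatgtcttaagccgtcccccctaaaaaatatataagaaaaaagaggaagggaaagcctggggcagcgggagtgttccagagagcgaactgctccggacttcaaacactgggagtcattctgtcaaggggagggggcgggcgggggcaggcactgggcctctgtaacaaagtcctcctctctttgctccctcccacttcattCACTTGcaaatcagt
The window held 1 match, CACTTG, which begins 15 bases before the start site, and no CAGGTG or CACCTG, the subset that Zeb and Snail factors prefer. Of the 32851 promoter windows of the same length in the table, 66.2% held a CANNTG and 17.2% a CAGGTG or CACCTG, so the match in Cdh6 is a common one.

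Of the 10 genes, 7 passed the filter on low genes, and all 7 were past the threshold of the limma test (adjusted p under 0.05 over all tested genes), 5 of them higher and 2 lower in shCdGAP. Among all 13483 tested genes 21.0% were past it, 9.92% as higher and 11.1% as lower. The libraries of the groups did not overlap for these 7 members, as for 44.1% of tested genes (21.8% with higher and 22.3% with lower values in shCdGAP). Without shCdGAP library 1 all 7 were again past the threshold, where 39.9% of tested genes were. The members were chosen with earlier results of these data known, and Cdh19 passed the filter through its shCON libraries alone, so that the count is a description of the family. The median absolute log2 fold change was 0.88 over the 7 members and 0.25 over all tested genes. Cdh3, Cdh5 and Cdh11 had 34, 32 and 13 reads over the 6 libraries and were not tested.

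**Figure D1:**
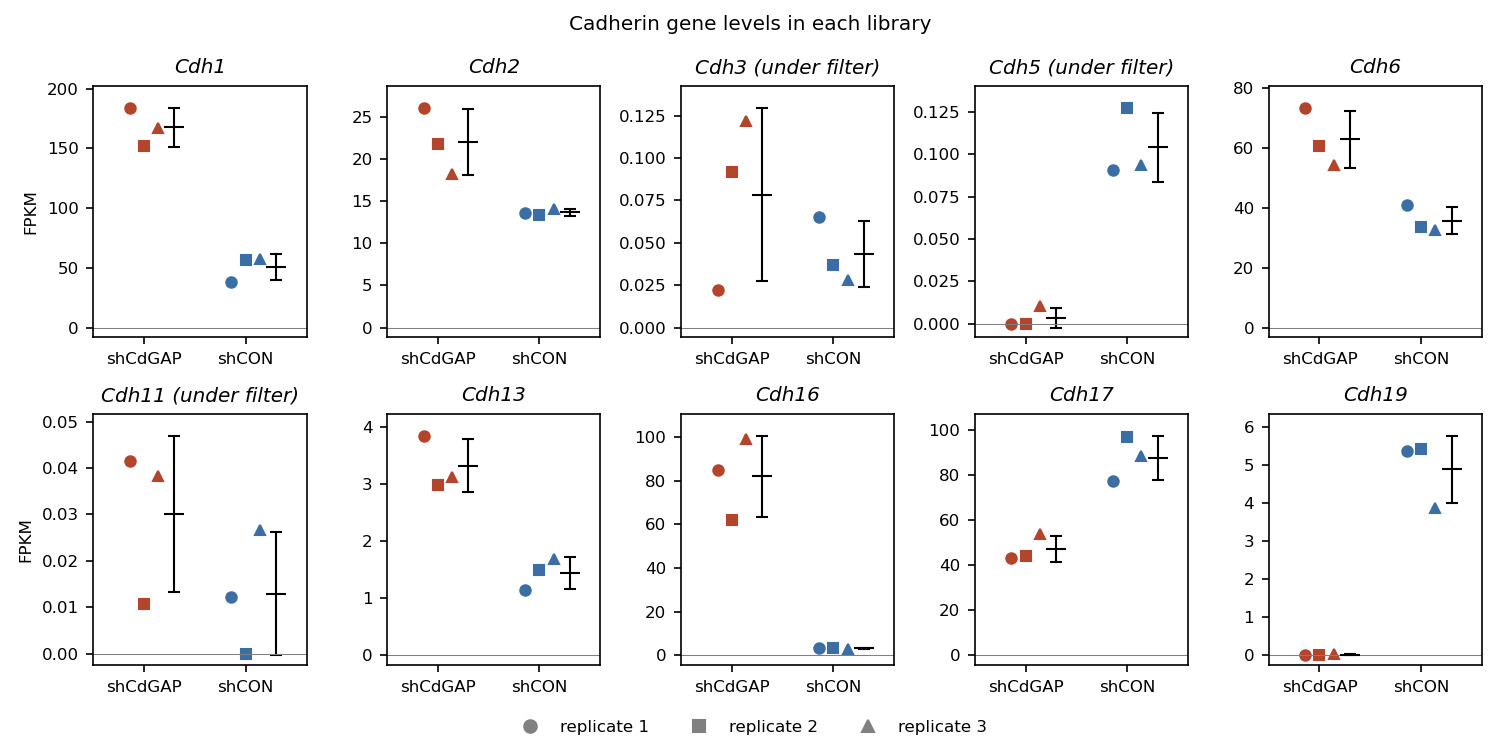
FPKM of each cadherin gene in the 3 shCdGAP (left, red) and 3 shCON (right, blue) libraries, with a linear axis of its own per gene and the replicate number as the symbol; black bars are means ± SD. Cdh1, Cdh2, Cdh6, Cdh13 and Cdh16 lie higher in every shCdGAP library than in any shCON library, Cdh17 and Cdh19 lie lower, and Cdh3 and Cdh11 are at most 0.122 FPKM in all 6.

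Among type I cadherins, Cdh1 (E-cadherin, ENSMUSG00000000303, chromosome 8, 106603351 to 106670246 of mm10, plus strand) had 184, 152 and 167 FPKM in shCdGAP libraries 1, 2 and 3, against 37.9, 56.9 and 57.2 FPKM in shCON libraries 1, 2 and 3. Every shCdGAP value was far above every shCON value, and shCON library 1 was the lowest of its group. The ratio of group means was 3.31 and the log2 fold change on the log2(FPKM + 1) scale was 1.73 (95% interval 1.27 to 2.18, adjusted p = 0.00220, limma), a change in size exceeded by 2.09% of tested genes. Cdh1 RNA was abundant in both groups, since 97.6% of tested genes had a lower mean FPKM in shCdGAP and 90.8% in shCON.

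Cdh2 (N-cadherin, the classical cadherin of neural and mesenchymal cells, chromosome 18) had 26.1, 21.8 and 18.3 FPKM in the shCdGAP libraries, against 13.6, 13.4 and 14.1 FPKM in shCON. The shCdGAP libraries spread more widely than those of shCON but all lay above them. The ratio of means was 1.61 and the log2 fold change 0.64 (SE 0.14, adjusted p = 0.0253, limma). This call was lost without shCdGAP library 2 (adjusted p = 0.0876) or shCON libraries 1, 2 or 3 (0.0846, 0.106 and 0.0891, limma), with a fold change of 0.62 to 0.66 in these fits.

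Cdh3 (P-cadherin, known in mammary gland from myoepithelial cells, chromosome 8) had 2, 8 and 12 reads in the shCdGAP libraries and 5, 4 and 3 reads in shCON, or at most 0.122 FPKM. The groups overlapped, and the ratio of depth-scaled reads was 1.94 with a counting interval of 0.918 to 4.29, so no difference was detectable at this depth. Its coding gene lies directly before Cdh1 on the same strand. The pair stood at very unequal levels, 168 ± 16.1 FPKM for Cdh1 and 0.0784 ± 0.0511 FPKM for Cdh3 in shCdGAP (SD, n = 3).

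Among type II cadherins, Cdh6 (K-cadherin, a cadherin of developing kidney tubules, ENSMUSG00000039385) had 73.2, 60.7 and 54.3 FPKM in the shCdGAP libraries, against 40.8, 33.5 and 32.4 FPKM in shCON. The groups did not overlap, and library 1 was the highest in each of them. The ratio of means was 1.76 and the log2 fold change 0.80 (SE 0.15, adjusted p = 0.0156, limma). The call was lost without shCdGAP library 2 (adjusted p = 0.0581) or shCON libraries 2 or 3 (0.0770 and 0.0740, limma).

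Cdh19 (ENSMUSG00000047216, chromosome 1, 110888326 to 110977584, minus strand), a cadherin known from Schwann cell precursors, had 1, 1 and 4 reads in the shCdGAP libraries, against 443, 639 and 442 reads in shCON. In FPKM these are 0.0102, 0.0106 and 0.0376 in shCdGAP and 5.36, 5.43 and 3.86 in shCON. The RNA was thus close to absent from all 3 shCdGAP libraries and readily counted in all 3 of shCON. Depth-scaled reads were 240.5-fold fewer in shCdGAP, with an interval of 110.2 to 656 that covers counting error alone. On the log2(FPKM + 1) scale the change was -2.52 (SE 0.13, adjusted p = 1.80e-04, limma), which the added 1 FPKM compresses: it was -5.37 with 0.1 FPKM added and -7.78 in limma-voom on reads.

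Cdh5 (VE-cadherin, the classical cadherin of endothelium) had 0, 0 and 1 reads in the shCdGAP libraries, against 7, 14 and 10 reads in shCON. The shCON libraries thus held a low but repeated signal of 0.0909 to 0.128 FPKM, and a count of 0 allows up to 3 reads, or 0.0274 to 0.0390 FPKM for this gene. Depth-scaled reads were 29.4-fold fewer in shCdGAP, with a counting interval of 4.89 to 1196. The gene was under the filter here, but the authors' deposited table called it lower (log2 fold change -2.64, SE 0.66, adjusted p = 5.62e-04). In either direction the authors' deposited table called 8 of the 10 members, 5 higher and 3 lower, and 23.8% of its 16970 genes with an adjusted p. For Cdh3 and Cdh11 the authors' deposited table gave adjusted p-values of 0.541 and 0.599. Cdh11 (OB-cadherin, of mesenchymal cells) had 4, 1 and 4 reads in shCdGAP and 1, 0 and 3 reads in shCON, too few to show a difference.

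Markers of the cell types that Cdh5 and Cdh19 are best known from were read beside them. Of 9 endothelial markers, Cldn5 and Emcn had no reads, Kdr had 2 reads in all libraries together, and the summed level was 1.85 to 2.80 FPKM in shCdGAP and 1.22 to 1.41 FPKM in shCON, most of it from Egfl7 (2.10 FPKM in shCdGAP and 0.989 FPKM in shCON). Of 6 Schwann and neural crest markers, Sox10 and Foxd3 had no reads, and the summed level was 5.48 to 7.52 FPKM in shCdGAP and 3.70 to 4.12 FPKM in shCON, most of it from Mbp, which was higher in shCdGAP (adjusted p = 0.00551, limma). The other endothelial markers with reads in shCON had lower means in shCdGAP, as Cdh5 did: Tek had no reads in shCdGAP and 0.0849 to 0.0952 FPKM in shCON, Pecam1 averaged 0.0135 FPKM in shCdGAP and 0.0489 FPKM in shCON, and Vwf averaged 0.0180 FPKM in shCdGAP and 0.0676 FPKM in shCON. Tek and Vwf missed the limma threshold, whereas limma-voom on reads called 1 endothelial marker higher and 2 lower. Tek entered the test through its shCON libraries alone. The part of these cell types in the levels of Cdh5 and Cdh19 was not tested. In bulk RNA, fewer cells expressing a gene and less RNA per cell cannot be told apart.

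Among atypical cadherins, Cdh16 (Ksp-cadherin, of kidney and thyroid epithelium, ENSMUSG00000031881, chromosome 8, 104601911 to 104624396, minus strand) had 85.0, 61.9 and 98.9 FPKM in the shCdGAP libraries, against 3.26, 3.30 and 2.88 FPKM in shCON. The shCON libraries agreed closely at a low level, and the shCdGAP libraries spread widely, far above them. The ratio of means was 26.1 and the log2 fold change 4.30 (95% interval 3.86 to 4.74, adjusted p = 9.12e-05, limma), a size exceeded by 0.104% of tested genes.

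Cdh17 (LI-cadherin, of intestinal and fetal liver epithelium, ENSMUSG00000028217) moved the other way. It had 43.4, 44.1 and 53.7 FPKM in the shCdGAP libraries, against 77.2, 96.9 and 88.6 FPKM in shCON, with no overlap. The ratio of means was 0.538 and the log2 fold change -0.88 (SE 0.14, adjusted p = 0.00750, limma). In shCON it was the most abundant of the 10 cadherin RNAs, with a higher mean than 95.2% of tested genes.

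Cdh13 (T-cadherin, ENSMUSG00000031841) had 3.85, 2.99 and 3.13 FPKM in the shCdGAP libraries, against 1.14, 1.49 and 1.68 FPKM in shCON. The groups did not overlap, at a level below that of most tested genes. The ratio of means was 2.31 and the log2 fold change 0.83 (SE 0.13, adjusted p = 0.00914, limma), or 1.20 in limma-voom on reads, where no FPKM is added.

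**Figure D2:**
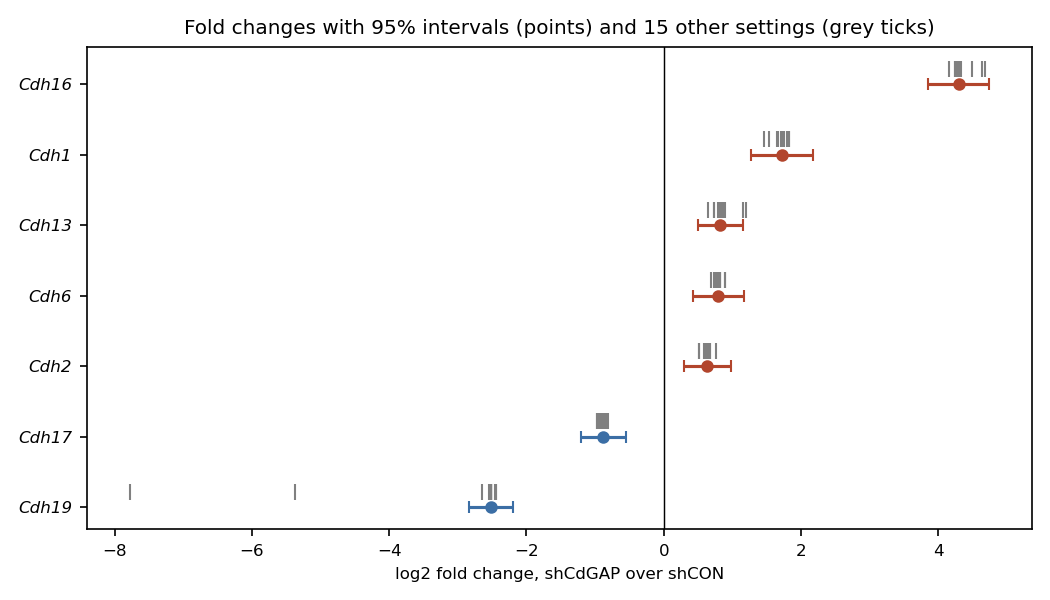
log2 fold change of the 7 tested cadherin genes, shCdGAP over shCON, with 95% limma intervals (points and bars) and the value under each of 15 other settings (grey ticks). No tick crosses 0 for any gene, and the ticks of Cdh19 reach -7.78 where the added constant is small or absent.

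The order of the cadherin RNAs differed between the groups. In shCdGAP the mean levels ran from Cdh1 (168 FPKM) through Cdh16 (82.0), Cdh6 (62.7), Cdh17 (47.1), Cdh2 (22.1) and Cdh13 (3.32) to the members under 0.1 FPKM. The ranges of Cdh16 and Cdh6 overlapped there, and those of Cdh6 and Cdh17 lay next to each other without overlap. In shCON the order was Cdh17 (87.5 FPKM), Cdh1 (50.7), Cdh6 (35.6), Cdh2 (13.7), Cdh19 (4.88), Cdh16 (3.14) and Cdh13 (1.44), with overlapping ranges for Cdh1 and Cdh6. FPKM is per length, so these levels can be compared between genes.

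The summed level of the 10 genes was 385 ± 37.3 FPKM in shCdGAP and 197 ± 16.2 FPKM in shCON (SD, n = 3 each). Cdh1 made up 44.2%, 44.2% and 42.3% of that sum in the shCdGAP libraries, against 21.1%, 27.0% and 28.5% in shCON. Cdh17 made up 10.4%, 12.9% and 13.6% in shCdGAP and 43.0%, 45.9% and 44.1% in shCON. The share of Cdh16 was 20.5%, 18.0% and 25.0% in shCdGAP and 1.82%, 1.56% and 1.43% in shCON. Cdh1 and Cdh17 thus changed places as the leading cadherin in every library. Cdh6 kept a similar share, 16.3 ± 2.28% in shCdGAP and 18.2 ± 3.88% in shCON. An exact two-sided permutation test of each share, of the sum and of the Cdh1 to Cdh2 ratio can give no p below 0.10 with 3 libraries against 3, and it gave 0.10 for the shares of Cdh1, Cdh5, Cdh16, Cdh17 and Cdh19, for the sum and for the ratio (adjusted p = 0.171 over 12 quantities).

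**Figure D3:**
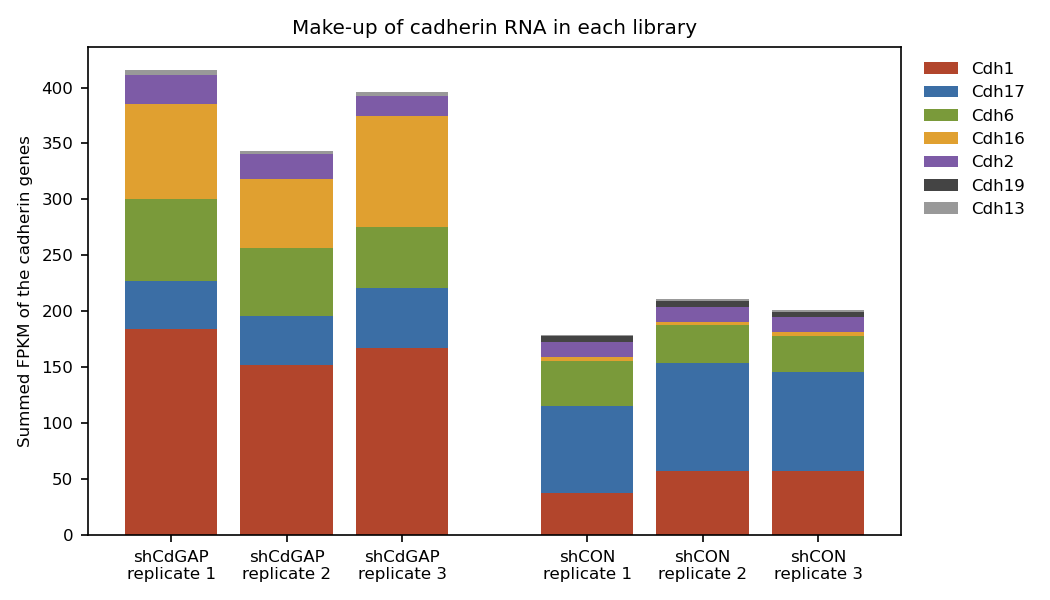
Summed FPKM of the cadherin genes in each library, shCdGAP on the left and shCON on the right, split by gene; Cdh3, Cdh5 and Cdh11 are too low to draw. Cdh1 is the largest block in each shCdGAP library and Cdh17 in each shCON library.

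Cdh1 and Cdh2, often set against each other as epithelial and mesenchymal cadherins, were both higher in shCdGAP. The ratio of Cdh1 to Cdh2 FPKM was 7.04, 6.94 and 9.15 in the shCdGAP libraries, against 2.79, 4.25 and 4.05 in shCON. The log2 change of Cdh1 exceeded that of Cdh2 by 1.09, that of Cdh6 by 0.93 and that of Cdh13 by 0.90, and fell short of that of Cdh16 by 2.57. The gap to Cdh13 depended on the added 1 FPKM and was 0.55 in limma-voom on reads and 0.58 with 0.1 FPKM added. Leaving out 1 library at a time, the gap to Cdh6 ran from 0.64 (without shCON library 1) to 1.09 (without shCON library 3). The log2 fold change of Cdh1 itself was 1.53 without shCON library 1 and 1.46 without both libraries numbered 1. In each of the 6 pairs of Cdh1 with another tested member the per-library differences did not overlap between groups, with p = 0.10 in the exact two-sided permutation test, the smallest it can give (adjusted p = 0.10).

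Of the 10 genes, 6 lie on chromosome 8, and the 3 of these that were tested (Cdh1, Cdh13 and Cdh16) were all higher in shCdGAP. Chromosome 8 as a whole held more genes that were higher: of its 714 tested genes 137 (19.2%) were past the limma threshold as higher and 42 (5.88%) as lower, and their median log2 fold change was 0.18, against a median of -0.01 over all tested genes. By the share of higher genes it stood behind chromosomes 17, 19 and 13 among 20. Its part in the values of Cdh1, Cdh13 and Cdh16 was not tested. The members elsewhere went both ways, with Cdh2 (chromosome 18) and Cdh6 (15) higher and Cdh17 (4) and Cdh19 (1) lower.

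The nearest tested genes on either side were set beside each tested member. Of these 14 genes, 5 were higher and 1 lower in shCdGAP, against 9.92% and 11.1% of all tested genes. Of the 5, 4 were among the 6 neighbours of the chromosome 8 members. The other was Dsg2, which lies 3749 kb from Cdh2, so the nearest tested gene can be far away. Beside Cdh1, Tango6 stood 12.8 kb away and had a log2 fold change of 0.15 (adjusted p = 0.517, limma), whereas Gm10073, 29.9 kb away, had 0.48 (adjusted p = 0.0183). Beside Cdh16, Pdp2 stood 2.88 kb away with 0.09 (adjusted p = 0.694) and Rrad, encoding a small GTPase, 3.67 kb away with 0.76 (adjusted p = 0.00544, limma). Beside Cdh13, Hsbp1 and Mphosph6 were higher by 0.65 and 0.70 (adjusted p = 0.00611 and 0.0329, limma). Within 1000 kb of the Cdh1 start site, 5 of 47 other tested genes were higher and 3 lower, with a median of 0.09. Within the same distance of Cdh16, 6 of 30 were higher and 3 lower, with a median of 0.19. Over chromosome 8 as a whole, 19.2% of tested genes were higher and 5.88% lower. No gene in either window other than the cadherin itself rose by more than 1.63, the value of Smpd3, a sphingomyelinase gene before Cdh1. The lowest value in the Cdh16 window was -1.65, that of Ces2e (adjusted p = 1.55e-04, limma). In the GENCODE M21 annotation, 13 genes overlap a member and 0 of them share exon bases with it. Whether the authors counted reads on the same gene models is not given in the sources used here.

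**Figure D4:**
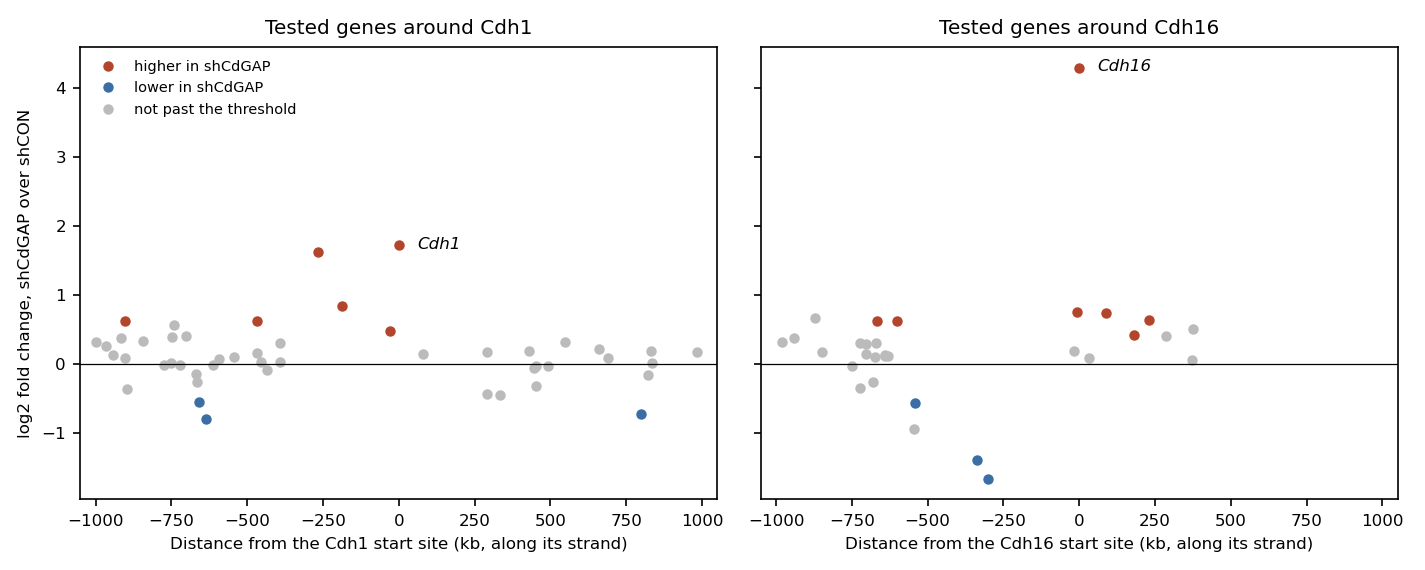
log2 fold change (shCdGAP over shCON) of tested genes within 1000 kb of the start sites of Cdh1 and Cdh16, by distance along the strand of each; red is higher, blue lower and grey not past the threshold. Cdh16 at 4.30 stands far above its neighbours, and Cdh1 at 1.73 lies close to Smpd3 at 1.63.

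The genes whose centred log2 profile over the 6 libraries lay nearest to that of Cdh1, among 7628 candidates averaging 5 FPKM or more, were Clu (clusterin, a secreted chaperone), S100a16, P3h4, Tuft1 and Llgl2, a gene of epithelial polarity, with root mean square differences of 0.11, 0.16, 0.16, 0.18 and 0.19 log2 units. Clu had 340, 296 and 298 FPKM in the shCdGAP libraries and 84.5, 102 and 108 FPKM in shCON. That shCON library 1 was the lowest, as for Cdh1, follows from choosing genes by this profile. The nearest to Cdh16 were Fam20c, Sult1c2, Ehf, Dio3 and Habp2, at 0.35, 0.36, 0.42, 0.45 and 0.46 log2 units. None of these 10 genes lies on chromosome 8, but with 714 of the 13483 tested genes there, 10 genes would often include none.

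In the rest of the superfamily, 4 of 18 other cadherin and cadherin-related genes were tested, and 2 were lower, Cdhr1 and Cdhr2, with a median log2 fold change of -0.17 over the 4. Cdhr2, a protocadherin of the intestinal and renal brush border, had 0.487, 0.177 and 0.292 FPKM in the shCdGAP libraries, against 3.32, 5.35 and 4.62 FPKM in shCON (log2 fold change -2.03, adjusted p = 9.46e-04, limma). Cdhr1 stood at 0.152 FPKM at most and lost its call in the fit blocked on replicate number (adjusted p = 0.0542, limma), without shCdGAP libraries 2 or 3, and without shCON libraries 2 or 3. Cdh10 and Cdh26, named after their values were seen, had 0 reads in all 3 shCdGAP libraries, against 44, 12 and 15 reads and 4, 14 and 13 reads in shCON, at least 22.4-fold and 9.78-fold lower against a floor of 3 reads over the group. Cdh10 missed the limma threshold on log2(FPKM + 1) (adjusted p = 0.207) and passed it in limma-voom on reads (0.00636). It entered the test through its shCON libraries alone, so neither p-value adds to the reads above.

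Of 9 desmosomal cadherins, which join cells to keratin filaments, Dsg2 alone was tested, with 3.79, 4.05 and 3.69 FPKM in shCdGAP against 0.0751, 0.0879 and 0.0995 FPKM in shCON (log2 fold change 2.15, adjusted p = 7.35e-05, limma). Of 12 tested Fat, Dchs, Celsr, calsyntenin and protocadherin genes, 3 were higher and 4 lower, with a median of -0.12. Celsr1, a cadherin of planar polarity, averaged 9.45 ± 0.607 FPKM in shCdGAP and 2.97 ± 0.331 FPKM in shCON (log2 fold change 1.40, adjusted p = 6.00e-04, limma). Pcdh7 averaged 5.75 ± 1.03 FPKM in shCdGAP and 36.7 ± 11.2 FPKM in shCON (log2 fold change -2.45, adjusted p = 0.00128, limma; SD, n = 3 each). Fat2 and Pcdh9 were lower too (adjusted p = 0.00371 and 0.0111, limma), with ratios of mean FPKM of 0.164 and 0.134, close to the 0.157 of Pcdh7; at their low levels the added 1 FPKM reduces the log2 fold changes to -0.93 and -0.55. The split was 3 higher and 6 lower without shCdGAP library 1, and 1 higher and 3 lower without shCdGAP library 2 or any shCON library.

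The catenins that bind classical tails did not pass the test, in contrast to the cadherins listed above, although the difference between these sets was not tested. Ctnnb1 (beta-catenin) was at 556, 307 and 324 FPKM in shCdGAP, against 283, 269 and 270 FPKM in shCON (log2 fold change 0.47, adjusted p = 0.215, limma). Its highest value was in shCdGAP library 1, and without that library the other 2 still lay above shCON. Ctnna1 (alpha-catenin), Ctnnd1 (p120-catenin) and Jup (plakoglobin) had log2 fold changes of 0.16, 0.22 and 0.47 (adjusted p = 0.320, 0.248 and 0.178, limma). These 4 are named as the core catenins and not for their p-values.

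Of the 24 tested catenins and junction partners, 6 were higher and 1 lower (median log2 fold change 0.31). Wtip and Camsap3, whose products act at junctions, rose by 1.27 and 1.19 (adjusted p = 0.00379 and 0.00229, limma), and Mllt4 (afadin) by 0.43 (0.0259), a call lost without shCdGAP libraries 2 or 3 or shCON libraries 2 or 3. Ctnnal1 (alpha-catulin) averaged 4.74 FPKM in shCdGAP and 12.7 FPKM in shCON (log2 fold change -1.24, adjusted p = 0.00220, limma). Without shCdGAP library 1 the list had 9 higher and 2 lower, without shCON library 1 it had 4 higher, and without any of the other 4 libraries 2 higher. Under library size scaling it had 3 higher and 1 lower, and so it had with no filter on low genes.

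**Figure D5:**
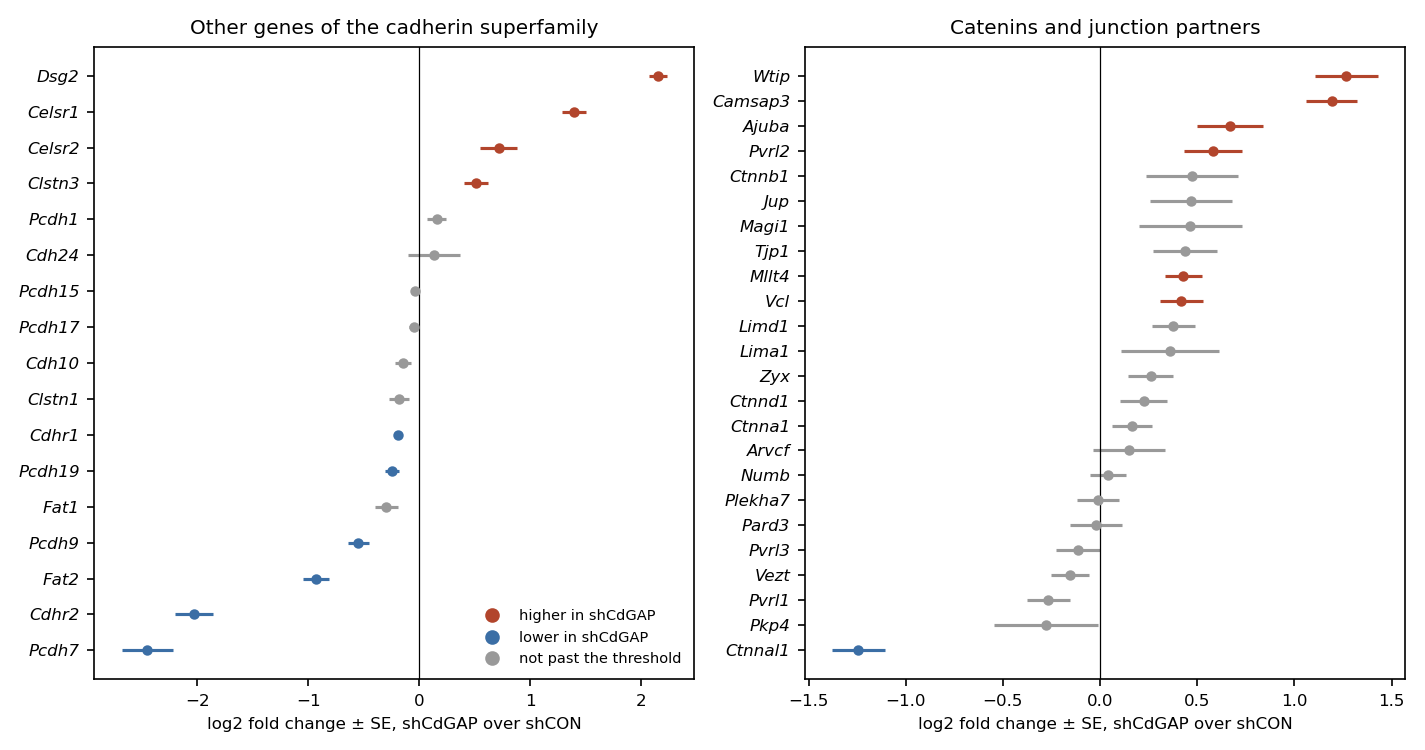
log2 fold change ± SE (shCdGAP over shCON) of tested genes of the wider cadherin superfamily (left) and of catenins and junction partners (right), with red for higher, blue for lower and grey for genes not past the limma threshold. The core catenins Ctnnb1, Ctnna1, Ctnnd1 and Jup are grey, and Dsg2 and Pcdh7 lie at the ends of the superfamily panel at 2.15 and -2.45.

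Of 13 tested repressors of Cdh1 and their cofactors, 1 was higher and 2 lower, and with the replicate block 1 was higher and 3 lower. The gene added by the block was Snai2, with 1.83, 0.718 and 0.476 FPKM in the shCdGAP libraries and 3.39, 2.06 and 2.04 FPKM in shCON (adjusted p = 0.0887 without and 0.0218 with the block, limma). Snai1 had 5.37, 5.20 and 4.62 FPKM in the shCdGAP libraries, against 11.0, 10.3 and 10.4 FPKM in shCON (log2 fold change -0.93, adjusted p = 0.00179, limma). Zeb2 had 0.972, 0.825 and 0.883 FPKM in shCdGAP and 2.23, 1.46 and 1.56 FPKM in shCON (-0.53, adjusted p = 0.0330, limma), a call lost without shCdGAP libraries 2 or 3 or shCON libraries 2 or 3. Twist2 rose to 1.48 FPKM on average in shCdGAP, against 0.0791 FPKM in shCON (adjusted p = 0.0126, limma), a call lost without any 1 shCON library. The list had 4 higher and 3 lower without shCdGAP library 1, 0 higher without any shCON library, and 1 lower without shCdGAP libraries 2 or 3 or shCON libraries 2 or 3.

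Of 15 tested epithelial activators of cadherin genes, 5 were higher and 2 lower (7 and 4 without shCdGAP library 1, and 3 and 2 without shCON library 2). Hnf4a, which with Cdx2 is known from the control of Cdh17 in gut epithelium, averaged 64.4 ± 18.1 FPKM in shCdGAP and 59.8 ± 3.37 FPKM in shCON (adjusted p = 0.832, limma), and Cdx2 had 1 read in all libraries together. Ehf was higher (3.65), and Foxa1 and Grhl2 were lower (-1.77 and -0.50, adjusted p = 0.00120 and 0.00464, limma).

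Other markers of the epithelia that Cdh16 and Cdh17 are known from were present in part. Of 9 kidney tubule markers, Lhx1, Emx2 and Umod had no reads. Pax2, a transcription factor gene of the developing kidney, averaged 10.6 ± 3.51 FPKM in shCdGAP and 4.31 ± 0.0221 FPKM in shCON (SD, n = 3 each; log2 fold change 1.09, adjusted p = 0.0182, limma). Slc12a1, a salt transporter gene of the kidney tubule, averaged 0.0551 FPKM in shCdGAP and 0.223 FPKM in shCON, a ratio of 0.247. At this low level the added 1 FPKM reduces its log2 fold change to -0.21 (adjusted p = 0.0435, limma). Pax2 lost its call without shCdGAP library 2 or any shCON library, and Slc12a1 without any library other than shCdGAP library 1 and in the blocked fit (adjusted p = 0.0539, limma). Of 7 intestinal markers, Cdx1 had no reads, and the summed level was 62.0 to 81.0 FPKM in shCdGAP and 47.8 to 54.4 FPKM in shCON, from Vil1 and Krt20 in the main. Vil1 (villin) was higher and Krt20 lower in shCdGAP (log2 fold changes 1.75 and -1.02, adjusted p = 0.0105 and 0.0116, limma), and Krt20 lost its call without shCdGAP library 2 or shCON libraries 1 or 2. The part of such shifts in the levels of Cdh16 and Cdh17 was not tested.

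Of 13 tested genes of cadherin maturation, shedding and turnover, 1 was higher and 3 lower. Rab11a, of recycling endosomes, averaged 98.2 ± 11.2 FPKM in shCdGAP and 52.4 ± 3.24 FPKM in shCON (log2 fold change 0.89, adjusted p = 0.00420, limma). Mdm2, a ubiquitin ligase, and the protease gene Mmp3 were lower (-2.08 and -1.19, adjusted p = 0.00115 and 0.00450, limma). Pcsk6, a proprotein convertase gene, was lower by -1.23 (adjusted p = 0.0225, limma) but lost its call without any 1 library other than shCdGAP library 1 and in the blocked fit (adjusted p = 0.0507, limma). The sheddase genes Adam10 and Adam17 did not pass (adjusted p = 0.536 and 0.630, limma).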

How the data were processed

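Total RNA of 6 libraries was sequenced, grouped and numbered as labelled. The tools named were, per the submitters' processing notes and without their roles, Trimmomatic, TopHat2 2.0.13, featureCounts and DESeq2 with build mm10. Neither the annotation nor whether counting used strand is given in the sources used here. The authors deposited 1 table of 41214 genes with FPKM per library, already scaled by size factors. Further columns, per the file headers, are the authors' own contrast: the mean scaled signal, the log2 fold change and its SE, the score of the test, the p-value and the adjusted p-value.

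Whole reads were recovered from FPKM and the deposited mean signal for 100% of values (tolerance 1e-06), and 22322 genes had reads. Genes entered the test with 10 or more reads (at median depth) in 3 libraries and 15 in all. Genes with almost no reads in 1 group entered through the other group alone, as Cdh10, Cdh19, Cdhr1, Cnn1, Krt5 and Tek did. Their p-values are descriptions. The test was limma 3.58.1 in R 4.3.3 on log2(FPKM + 1) with the group as its term, trend and robust settings, two-sided, adjusted by Benjamini-Hochberg over 13483 genes at 0.05. The added 1 FPKM understates changes of low genes. Counting intervals (95%, exact) and floors of 3 reads cover counting error only. Positions are from GENCODE M21 (mm10). Exact tests and plots used Python 3.11.15, scipy 1.17.1 and matplotlib 3.10.9. The fit was tested on simulated data with the same spread in every library. These held no library that stands apart as shCdGAP library 1 does.

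Members and gene lists were chosen with earlier results of these data known. The genes named are the members, up to 4 called genes with the smallest p of each list described, the 5 profiles nearest to Cdh1 and to Cdh16, and the nearest tested neighbours. Lists of leukocyte and fibroblast markers were also read and are not described. An item withheld for evaluation is not reported here. Others are named as core catenins, as known regulators or sheddases, or as marked. Same-numbered libraries deviated together from their group means (correlations of 0.43, 0.39 and 0.34 across genes for numbers 1, 2 and 3), and with every such value over 0.1 the numbers were taken to pair them, which no label states. Libraries numbered 2 and 3 also deviated together across numbers (0.35 for shCdGAP 2 with shCON 3, 0.27 for shCdGAP 3 with shCON 2), so the values set number 1 apart and do not single out pairs 2 and 3. Differences between members under other constants were added after seeing the data. A fit with the number as a block was an alternative, beside other filters, scalings, constants and left-out libraries.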

Additional observations from a re-analysis of the deposited data

How the results depend on the processing

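Cdh1, Cdh13, Cdh16, Cdh17 and Cdh19 kept their direction and their call under all 15 alternatives tried. Leaving out 1 library at a time, the log2 fold change of Cdh2 was 0.51 to 0.76 and that of Cdh6 0.68 to 0.90, and 5 to 7 members were called. The count of changed genes was then 1237 to 5373, with 469 to 2680 higher and 768 to 2693 lower, the highest counts being those without shCdGAP library 1. Without both libraries numbered 1, 6506 genes changed, 3276 higher and 3230 lower. With the filter set to a mean of 5 CPM, 922 were lower. With the replicate number as a block, 2458 genes changed and Cdh2 stayed close to the threshold (log2 fold change 0.64, adjusted p = 0.0497, limma). The block changed no call among the 7 tested members, but most adjusted p-values rose. They were 0.0144 for Cdh1, 0.0362 for Cdh13, 0.00355 for Cdh16, 0.0198 for Cdh17 and 0.00408 for Cdh19 (limma). That of Cdh6 fell to 0.0131. As a share of CPM, which is not per length, the gain of Cdh16 was 14.2 percentage points, against 19.6 as a share of FPKM; the differing transcript lengths enter that value by construction. Depth limits Cdh3, Cdh5 and Cdh11, with 34 reads or fewer in all.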
